A study of Homo sapiens with 4 samples.

Results

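The zinc finger genes of chromosome 19 were taken as all protein-coding genes of that chromosome whose symbol is ZNF followed by a number in the GENCODE annotation of hg19. There were 246 such genes among 1480 protein-coding genes of chromosome 19 and 20163 protein-coding genes in all. The remaining 1231 genes of chromosome 19 served as the comparison, and 3 readthrough loci that join a pair of genes under a double symbol (ZNF559-ZNF177, ZNF625-ZNF20 and ZNF816-ZNF321P) were in neither set. The choice rests on the name and position alone and used no measured value. It was made with earlier results of these data known.

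The study asked which non-coding mutations create new regulatory links in cancer genomes, and for this purpose it profiled histone H3 acetylated at lysine 27 (H3K27ac) by ChIP-seq in 4 established cancer cell lines. These were COLO-205, a colon cancer line grown in RPMI with FBS, DU-145, a prostate cancer line grown in Eagle minimal essential medium with FBS, OVCAR-3, an ovarian cancer line grown in RPMI 1640 with FBS, and SKOV-3, an ovarian cancer line grown in McCoy’s 5a minimal essential medium with FBS. No line received a treatment, all were processed with the same antibody, and each is represented by 1 library, so the lines cannot be told apart from the libraries and no replicate error can be given. The deposited peak lists hold 85576 peaks in COLO-205 and 75468 in DU-145, with 76093 in OVCAR-3 and 14001 in SKOV-3, of which 1805, 3102, 5362 and 845 lie on chromosome 19.

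H3K27ac marks active promoters and enhancers. Most ZNF genes of chromosome 19 encode proteins with a row of C2H2 zinc fingers, which bind DNA, and many also carry a KRAB domain. KRAB zinc finger proteins bind transposable elements and other targets and recruit TRIM28 and the H3K9 methyltransferase SETDB1, which silence them. The genes arose by tandem duplication and stand in clusters, and the zinc finger exons at their 3′ ends are a known site of H3K9me3, a repressive mark laid down with the help of ZNF274.

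The lists were checked first against genes known from colon and ovarian tissue. The promoters of CDX2 and VIL1, an intestinal transcription factor and a brush border protein, carried a peak only in COLO-205, and 3 of 5 colon genes were marked there against 1, 1 and 0 in DU-145, OVCAR-3 and SKOV-3. PAX8, a factor of the Müllerian lineage, was marked in all 4 lines, and the ovarian carcinoma list had 5 of 5 genes marked in OVCAR-3, 2 in SKOV-3, 4 in COLO-205 and 3 in DU-145. Over all protein-coding genes, 51.1% were marked in COLO-205 and 59.8% in DU-145, with 31.6% in SKOV-3 and 60.5% in OVCAR-3. The 3 of 5 colon genes in COLO-205 and the 2 of 5 ovarian genes in SKOV-3 lie near those shares, so the counts of these short lists do not settle the tissue labels of the lines.

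A gene was called marked in a line when a deposited peak overlapped the 1 kb on either side of any of its transcript starts. The strength of a peak is given as its −log10 q, where q is the multiple-testing adjusted p-value that the authors' peak caller gave it, so a larger value is a clearer peak within that library. To show what such promoters look like, the bases before the start are printed for the ZNF genes with the strongest peaks in all 4 lines (ZNF414, ZNF558 and ZNF121), for the unmarked ZNF genes whose promoters hold the most CG dinucleotides (ZNF324B, ZNF761 and ZNF845) and for ZNF274. Capitals mark CG dinucleotides, the sites of DNA methylation in vertebrate cells. The sequences run 5′ to 3′ on the strand of the gene, come from the GRCh37 (hg19) reference and lie upstream of the start, where annotated exons were left out. They are at chr19:8579052-8579301, chr19:8942991-8943052 and chr19:9695181-9695430 on the minus strand, and at chr19:58962739-58962977, chr19:53934987-53935236, chr19:53836752-53837001 and chr19:58694178-58694395 on the plus strand.
ZNF414: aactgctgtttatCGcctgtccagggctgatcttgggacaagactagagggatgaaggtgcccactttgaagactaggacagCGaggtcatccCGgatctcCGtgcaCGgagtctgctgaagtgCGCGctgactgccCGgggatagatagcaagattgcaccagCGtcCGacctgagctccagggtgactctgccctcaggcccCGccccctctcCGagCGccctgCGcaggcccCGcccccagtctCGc
ZNF558: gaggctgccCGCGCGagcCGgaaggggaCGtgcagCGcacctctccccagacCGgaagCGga
ZNF121: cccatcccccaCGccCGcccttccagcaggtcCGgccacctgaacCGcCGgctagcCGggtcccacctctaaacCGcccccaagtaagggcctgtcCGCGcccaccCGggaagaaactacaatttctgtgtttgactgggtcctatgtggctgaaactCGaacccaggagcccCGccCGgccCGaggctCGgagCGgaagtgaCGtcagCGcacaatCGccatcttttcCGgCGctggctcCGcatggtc
ZNF324B: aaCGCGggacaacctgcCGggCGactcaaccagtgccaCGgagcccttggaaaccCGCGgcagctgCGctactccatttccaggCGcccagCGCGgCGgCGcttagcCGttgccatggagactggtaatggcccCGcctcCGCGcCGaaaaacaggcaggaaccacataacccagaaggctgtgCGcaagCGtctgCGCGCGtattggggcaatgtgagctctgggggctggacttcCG
ZNF761: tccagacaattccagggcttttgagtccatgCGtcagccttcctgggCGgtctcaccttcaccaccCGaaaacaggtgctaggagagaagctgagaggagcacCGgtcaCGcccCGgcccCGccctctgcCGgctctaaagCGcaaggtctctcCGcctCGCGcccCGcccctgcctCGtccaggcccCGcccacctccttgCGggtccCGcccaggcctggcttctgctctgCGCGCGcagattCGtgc
ZNF845: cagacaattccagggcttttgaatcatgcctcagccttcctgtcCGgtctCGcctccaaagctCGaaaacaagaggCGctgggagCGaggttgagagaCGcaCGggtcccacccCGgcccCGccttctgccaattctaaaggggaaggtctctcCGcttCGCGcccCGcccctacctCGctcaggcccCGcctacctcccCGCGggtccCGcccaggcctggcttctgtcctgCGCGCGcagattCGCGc
ZNF274: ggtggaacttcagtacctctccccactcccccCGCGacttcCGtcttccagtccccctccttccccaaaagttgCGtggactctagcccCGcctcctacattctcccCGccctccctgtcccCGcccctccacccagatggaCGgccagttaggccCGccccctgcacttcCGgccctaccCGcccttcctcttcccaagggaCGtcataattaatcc

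The printed stretch holds 16 CG dinucleotides in 250 bases at ZNF414, 22 in 250 bases at ZNF121 and 8 in the 62 exon-free bases at ZNF558. The unmarked promoters, chosen for their CG, hold 24 in 239 bases at ZNF324B, 21 in 250 bases at ZNF761 and 23 in 250 bases at ZNF845. Over 300 bp, the median of all ZNF promoters was 15 for genes marked in no line and 19 for genes marked in all 4. The printed stretches of ZNF761 and ZNF845, members of one cluster, are similar, with 83.4% identity over 253 aligned columns (211 identical). Those of ZNF324B and ZNF845 match in 51.0% of 286 columns. How the authors treated reads that map to several places is not given in the sources used here. Whether reads of similar promoters do so was not examined, so the absence of a peak at such copies is uncertain.

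**Figure D1:**
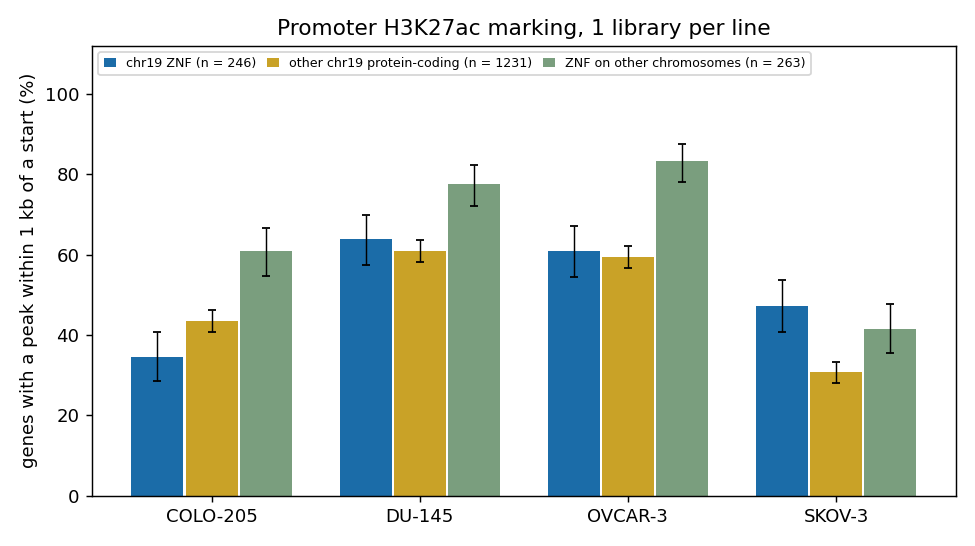
Share of genes (%, y axis) with an H3K27ac peak within 1 kb of a transcript start in each cell line (x axis), for the ZNF genes of chromosome 19, its other protein-coding genes and the ZNF genes of other chromosomes. Error bars are exact 95% binomial intervals over genes from 1 library per line. The chromosome 19 ZNF bar is the lowest of the 3 in COLO-205 (34.6%) and the highest in SKOV-3 (47.2%).

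How often the ZNF promoters were marked depended on the line, and the order of the lines was not that of other genes. In COLO-205, 85 of the 246 ZNF genes were marked (34.6%, exact Clopper-Pearson 95% interval 28.6 to 40.9%), against 43.5% of the other genes of chromosome 19, 42.0% of all its genes and 51.1% of all protein-coding genes. In DU-145, 157 were marked (63.8%, 57.5 to 69.8%), against 61.0% of the other genes of chromosome 19, 61.4% of all its genes and 59.8% of all protein-coding genes. In OVCAR-3, 150 were marked (61.0%, 54.6 to 67.1%), against 59.4%, 59.7% and 60.5%.

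In SKOV-3, which has the shortest peak list, 116 ZNF genes were marked (47.2%, 40.8 to 53.6%), against 30.7% of the other genes of chromosome 19, 33.6% of all its genes and 31.6% of all protein-coding genes. The ZNF share was thus 16.4 percentage points above that of the other genes in SKOV-3 and 8.9 points below it in COLO-205, with intervals that do not overlap in SKOV-3 and that overlap narrowly in COLO-205. With only peaks at a −log10 q of at least 10 the SKOV-3 difference was 6.93 points, and the intervals of ZNF genes (24.0 to 35.8%) and other genes (20.4 to 25.2%) overlapped. In DU-145 and OVCAR-3 the differences of 2.81 and 1.59 points were smaller than the intervals and were not detectable. The intervals cover counting error over genes, treat genes as independent although neighbours can share a peak, and say nothing of the spread between libraries, which was not measured. The cause of the differences between lines was not tested.

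List length mattered for these shares. When each list was limited to its 14001 strongest peaks by −log10 q, the length of the SKOV-3 list, 9.35% of ZNF genes were marked in COLO-205, 28.5% in DU-145 and, of the ovarian lines, 30.1% in OVCAR-3 and 47.2% in SKOV-3. For the other genes of chromosome 19 the shares were then 16.4%, 37.4%, 35.3% and 30.7%. The ZNF share was thus below that of the other genes in the 3 lines with long lists and above it only in SKOV-3. Lists of this length leave the SKOV-3 list whole, so that its marks stay as they are by construction and only the other lines can lose some.

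The low share in COLO-205 was not found in zinc finger genes of other chromosomes, whereas a share above that of all protein-coding genes in SKOV-3 was. Of the 263 ZNF genes on other chromosomes, 160 (60.8%) were marked in COLO-205 and 204 (77.6%) in DU-145, with 219 (83.3%) in OVCAR-3 and 109 (41.4%) in SKOV-3. In the first 3 lines these shares lie above the intervals of the chromosome 19 genes, and in SKOV-3 the intervals overlap (35.4 to 47.7% for the genes of other chromosomes, against 31.6% of all protein-coding genes). Among 18 zinc finger genes of chromosome 19 with other symbols (ZFP, ZSCAN and relatives), 4, 9, 12 and 9 were marked in COLO-205, DU-145 and the ovarian lines OVCAR-3 and SKOV-3. The olfactory receptor genes of the chromosome, which are mostly silent outside the nasal epithelium, had 1, 1, 1 and 0 of 20 marked.

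ZNF genes were found at either end of the scale from no line to all 4 lines less often than other genes. Of the 246, 26 were marked in no line (10.6%), 64 in 1 line, 63 in 2, 54 in 3 and 39 in all 4 (15.9%). Of the other genes of chromosome 19, 24.9% were marked in no line and 23.7% in all 4, and of all protein-coding genes 25.0% and 25.2%. At a −log10 q of at least 10, 69 ZNF genes (28.0%) were marked in no line and 17 (6.91%) in all 4, against 35.8% and 14.9% of the other genes. With lists of equal length it was 94 (38.2%) and 10 (4.07%), against 46.1% and 10.3%, so the order of the groups held while the counts moved. The ZNF genes of other chromosomes were marked in no line in 25 cases (9.51%) and in all 4 in 91 cases (34.6%).

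The most frequent incomplete combination of lines was the same in both groups, DU-145 with OVCAR-3, which 34 ZNF genes (13.8%) and 155 other genes (12.6%) had. The same pair with SKOV-3 was found for 31 ZNF genes (12.6%) against 5.28% of the other genes, and DU-145 alone for 26 (10.6%) against 6.66%. OVCAR-3 alone had 17 ZNF genes (6.91%, against 5.93%), SKOV-3 alone 13 (5.28%, against 0.325%) and COLO-205 alone 8 (3.25%, against 5.20%). The combination of the 3 lines with long lists held 115 other genes (9.34%) and 10 ZNF genes (4.07%), 4 of them in the last cluster along the chromosome and 3 in the cluster from ZNF653 to ZNF490.

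ZNF genes marked in SKOV-3 were unmarked in another line more often than the other genes marked there. Of the 378 other genes marked in SKOV-3, 80 were unmarked in COLO-205 (21.2%), against 9 in DU-145 (2.38%) and 18 in OVCAR-3 (4.76%), while 4 (1.06%) were unmarked in every other line. Of the 116 ZNF genes marked in SKOV-3, 58 were unmarked in COLO-205 (50%), against 32 in DU-145 (27.6%) and 33 in OVCAR-3 (28.4%), while 13 (11.2%) were unmarked in every other line. The 13 genes are ZNF737, ZNF66, ZNF85, ZNF676 and ZNF729 in the pericentromeric cluster, ZNF577, ZNF432, ZNF841, ZNF528, ZNF320 and ZNF415 in the cluster from ZNF175 to ZNF331, and ZNF814 and ZNF135 near the end of the long arm.

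**Figure D2:**
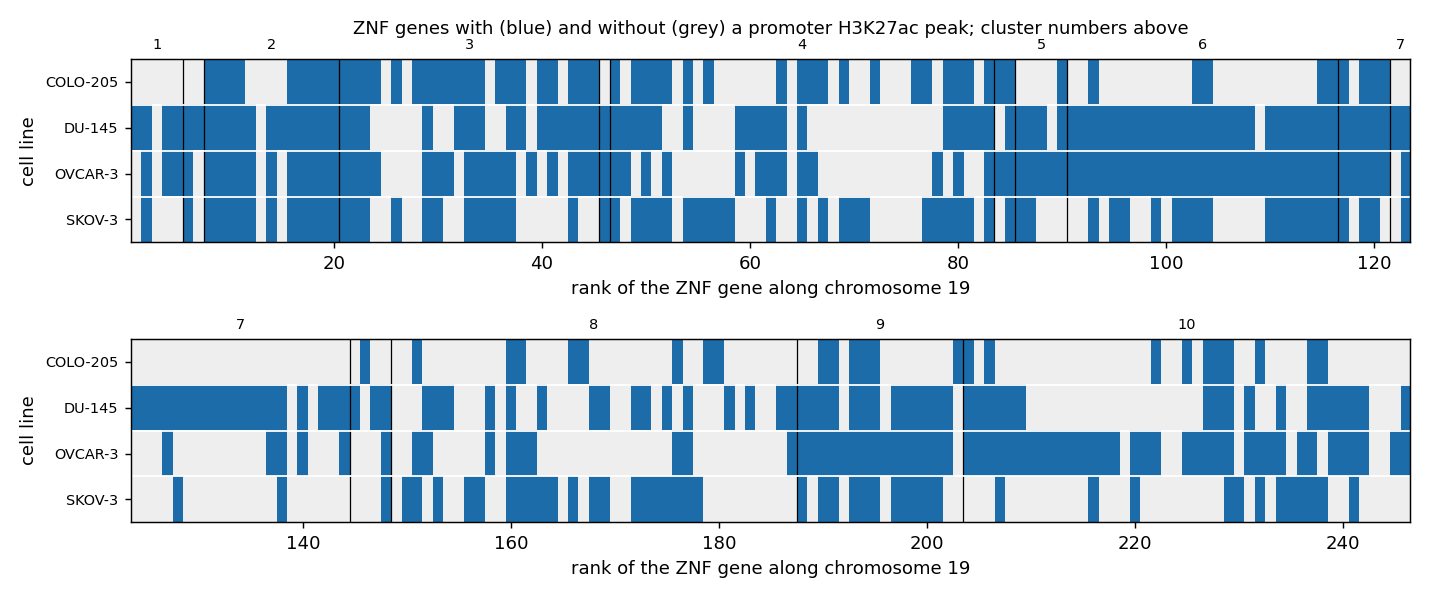
Marking of the 246 ZNF genes in their order along chromosome 19 (x axis, rank, in 2 panels) in each cell line (y axis). Blue is marked, grey is not marked, and vertical lines bound the 10 numbered clusters, with runs of up to 26 marked neighbours (OVCAR-3, cluster 6) and 23 unmarked neighbours (COLO-205, cluster 7).

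Marked and unmarked ZNF genes stood in runs along the chromosome. A cluster was defined as a run of at least 5 ZNF genes with neighbouring gene starts at most 500 kb apart, which gave 10 clusters with 232 genes and left 14 genes outside. The lowest and highest cluster shares lay 80.0 percentage points apart in COLO-205, 55.1 in DU-145 and, of the ovarian lines, 76.9 in OVCAR-3 and 71.6 in SKOV-3. This distance became 46.2 points in COLO-205 and 92.3 in DU-145 when the lists were of equal length, so that DU-145 had the widest in place of the narrowest. A cluster gap of 250 kb gave 89.0 points in DU-145. Any given cluster also differed in its share between lines, as the map of clusters by line shows.

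**Figure D3:**
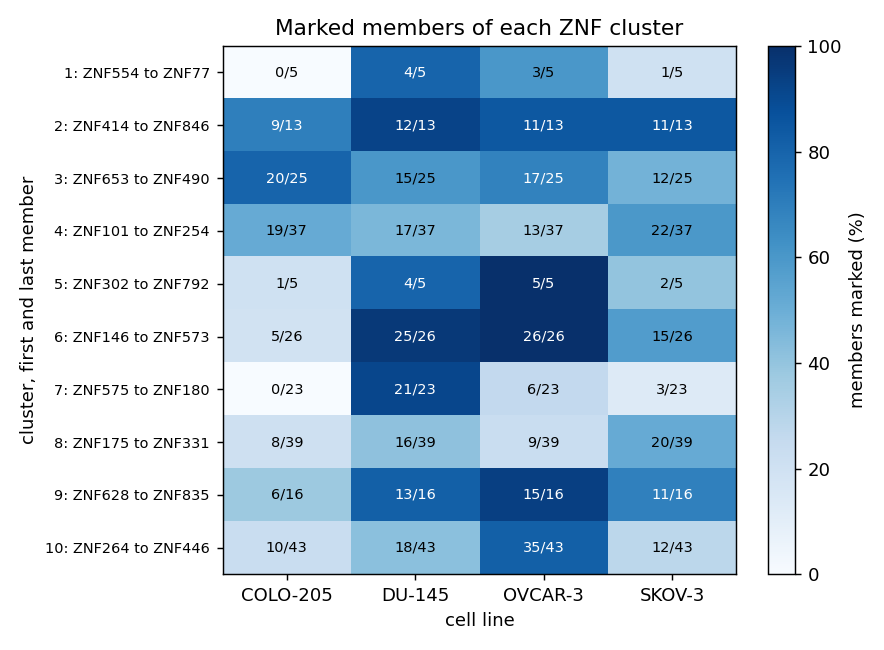
Number of marked ZNF genes of all ZNF genes in each of the 10 clusters (y axis, first and last gene) in each cell line (x axis), with colour for the share marked (%). The cluster from ZNF575 to ZNF180 has 0 of 23 in COLO-205 and 21 of 23 in DU-145, and the cluster from ZNF146 to ZNF573 has 5 of 26 in COLO-205 and 26 of 26 in OVCAR-3.

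The widest contrast between lines in the lists as deposited was in cluster 7, from ZNF575 to ZNF180 at chr19:44029649-45004576. Of its 23 ZNF genes, 0 were marked in COLO-205 (95% interval up to 14.8%), against 21 in DU-145 (91.3%) and, of the ovarian lines, 6 in OVCAR-3 and 3 in SKOV-3. DU-145 had 17 marked neighbours in a row, and 14 of the 26 ZNF genes marked only in DU-145 are here, among them ZNF155, ZNF230, ZNF222, ZNF223, ZNF284, ZNF224, ZNF225 and ZNF234. The 14 other protein-coding genes inside the cluster had 2, 11, 6 and 4 marked in COLO-205, DU-145 and the ovarian lines OVCAR-3 and SKOV-3, so they too were marked most often in DU-145. With lists of equal length, cut to the strongest peaks of each line, the ZNF genes of the cluster had 7 of 23 marked in DU-145 (30.4%), 3 in SKOV-3, 1 in OVCAR-3 and 0 in COLO-205. The contrast was then smaller than in cluster 6, which kept 24 of 26 in OVCAR-3, 23 in DU-145, 15 in SKOV-3 and 0 in COLO-205. The DU-145 peaks were modest, with a median −log10 q of 16.1 (6.59 to 38.7), which put the typical one at the 34.2nd percentile of all marked promoters in that line.

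Cluster 6, from ZNF146 to ZNF573 at chr19:36673178-38307940, was marked throughout in OVCAR-3. All 26 ZNF genes were marked there and 25 in DU-145, against 15 in SKOV-3 and 5 in COLO-205, and no member was unmarked throughout. The 6 other genes inside the cluster followed the same order, with 6 marked in OVCAR-3, 6 in DU-145, 3 in SKOV-3 and 1 in COLO-205. Its peaks in OVCAR-3 were also the strongest of any cluster, with a median −log10 q of 110 (8.29 to 220). This placed the typical member at the 85.8th percentile of all marked promoters of the line, while in DU-145, SKOV-3 and COLO-205 the cluster median was at the 59.8th, 53.1st and 22.7th percentile.

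Peaks away from promoters were also dense there in OVCAR-3. Inside cluster 6, 361 of 436 OVCAR-3 peaks lay more than 1 kb from any protein-coding start, or 221 per Mb, against 3.67 in SKOV-3, 14.7 in COLO-205 and 16.5 in DU-145. The part beyond 38 Mb lies in a stretch at 38 to 40 Mb where OVCAR-3 peaks are crowded, and it held 494 such peaks per Mb with 4 ZNF genes (ZNF540, ZNF571, ZNF607 and ZNF573). The part before 38 Mb still held 158 per Mb, and all 22 ZNF genes there were marked. The part of this local density in the marking of the ZNF promoters was not tested.

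Cluster 10, from ZNF264 to ZNF446 at chr19:57702868-58992597, is the last and largest, with 43 ZNF genes. It was marked most often in OVCAR-3, with 35 genes (81.4%), against 18 in DU-145, 12 in SKOV-3 and 10 in COLO-205, and 12 of the 17 ZNF genes marked only in OVCAR-3 lie in it. Within it OVCAR-3 had 15 marked neighbours in a row, while DU-145 had a run of 17 unmarked genes and COLO-205 one of 15. Its OVCAR-3 peaks were weak for that line, at a median percentile of 28.7. With lists of equal length the lead of OVCAR-3 over SKOV-3 was gone, with 12 of 43 marked in each (27.9%), 2 in DU-145 and 1 in COLO-205. Of the 22 other genes inside it, 5, 9, 13 and 5 were marked in COLO-205, DU-145 and the ovarian lines OVCAR-3 and SKOV-3.

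Clusters 4 and 8 were those in which SKOV-3 led. Cluster 4, from ZNF101 to ZNF254 at chr19:19779605-24312770, borders the centromere and holds 37 ZNF genes with only 3 other protein-coding genes. Of the 37, 22 were marked in SKOV-3, 13 in OVCAR-3, 17 in DU-145 and 19 in COLO-205. Cluster 8, from ZNF175 to ZNF331 at chr19:52074536-54083523, had 20 of 39 marked in SKOV-3, 9 in OVCAR-3, 16 in DU-145 and 8 in COLO-205. Its 14 other genes had 4, 2, 3 and 2 marked in the same order, and the 3 other genes of cluster 4 had 1, 0, 2 and 2. In both clusters the 95% interval of SKOV-3 overlaps that of each other line. These intervals cover counting error over the same genes, with 1 library per line, and do not test a difference between lines.

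With lists of equal length, in which only the other lines can lose marks, few marks were left outside SKOV-3. Cluster 4 then kept 22 of 37 in SKOV-3 and 1, 0 and 1 in COLO-205, DU-145 and OVCAR-3. Cluster 8 kept 20 of 39 in SKOV-3 and 0, 2 and 2 in the other lines. Peaks of cluster 4 ranked low in the long lists, at a median percentile of 25.6 in COLO-205, 14.9 in OVCAR-3 and 8.89 in DU-145, and at the 35.0th percentile in SKOV-3. These are ranks among 10308, 12189, 12063 and 6364 marked genes, taken over different marked members. They do not compare peak strength between lines.

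Cluster 2 of the short arm was marked at a high share in each line, from 69.2% in COLO-205 to 92.3% in DU-145. Reaching from ZNF414 to ZNF846 at chr19:8574562-9903856, it had 9, 12, 11 and 11 of 13 ZNF genes marked in COLO-205, DU-145 and the ovarian lines OVCAR-3 and SKOV-3, and it contributed 9 of the 39 genes marked in all 4 lines. It had 6, 12, 10 and 11 marked with lists of equal length. The 14 other genes within its bounds, many of them olfactory receptors, had 4, 6, 5 and 1 marked. Cluster 3, from ZNF653 to ZNF490 at chr19:11594242-12750912, was the only one with its highest share in COLO-205 in the lists as deposited, where 20 of 25 ZNF genes were marked against 15 in DU-145, 12 in SKOV-3 and 17 in OVCAR-3. When lists of equal length were used, SKOV-3 led with 12, against 9 in COLO-205 and 5 each in DU-145 and OVCAR-3. In the lists as deposited, the 13 other genes of cluster 3 had 8 marked in DU-145, 7 in COLO-205, 5 in OVCAR-3 and 4 in SKOV-3. COLO-205 thus did not lead among them.

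The 3 remaining clusters are small or mixed. Cluster 9, from ZNF628 to ZNF835 at chr19:55987984-57183151, had 6, 13, 15 and 11 of 16 ZNF genes marked in COLO-205, DU-145 and the ovarian lines OVCAR-3 and SKOV-3, while its 24 other genes had 7, 7, 8 and 7 marked. With lists of equal length its ZNF genes had 5, 6, 10 and 11 marked. Cluster 1, from ZNF554 to ZNF77 at chr19:2819866-2944969, had 0, 4, 3 and 1 of 5, and 0, 4, 1 and 1 with lists of equal length. Cluster 5, from ZNF302 to ZNF792 at chr19:35168544-35455133, had 1, 4, 5 and 2 of 5, and 0, 3, 2 and 2 with lists of equal length. Among the 14 ZNF genes outside clusters, 7, 12, 10 and 7 were marked, and ZNF507, ZNF546, ZNF780A and ZNF574 were marked in all 4 lines.

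The low share of COLO-205 was a feature of the long arm. On the short arm 48 of 83 ZNF genes were marked in COLO-205 (57.8%, 46.5 to 68.6%), against 37 of 163 on the long arm (22.7%, 16.5 to 29.9%). The other genes of the chromosome showed a smaller step, from 52.2% of 557 to 36.2% of 674. In DU-145 the ZNF shares of the arms were 61.4% and 65.0%, in OVCAR-3 55.4% and 63.8%, and in SKOV-3 57.8% and 41.7%, with intervals of the arms that overlap in all 3. The other genes had 70.4% and 53.3% in DU-145, 60.9% and 58.2% in OVCAR-3, and 39.0% and 23.9% in SKOV-3. Their share was thus lower on the long arm in each line, with intervals of the arms that overlap only in OVCAR-3.

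The other genes that lie between the ZNF genes did not fully share their state. Within the bounds of the 10 clusters, 30 (27.3%) of 110 other genes were marked in COLO-205 and 52 (47.3%) in DU-145, with 45 (40.9%) in OVCAR-3 and 29 (26.4%) in SKOV-3. Outside the clusters, 45.0% of 1121 other genes were marked in COLO-205, 62.4% in DU-145 and, of the ovarian lines, 61.2% in OVCAR-3 and 31.1% in SKOV-3. Clustered ZNF genes were marked at 33.6%, 62.5%, 60.3% and 47.0%, above the genes between them in each line, with intervals that do not overlap in OVCAR-3 and SKOV-3. Part of the marking was shared by construction, since the windows of 57 ZNF genes overlap that of another gene, 24 of them that of another ZNF gene. For 15, 37, 29 and 24 of the marked ZNF genes of COLO-205, DU-145 and the ovarian lines OVCAR-3 and SKOV-3, each promoter peak also lay in the window of another gene.

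Where ZNF promoters were marked, their peaks ranked low for the line by −log10 q. Each marked gene was given the percentile of its strongest promoter peak, by −log10 q, among all marked protein-coding genes of the same library. The median ZNF gene was at the 30.3rd percentile in COLO-205 and the 32.2nd in DU-145, with the 36.3rd in OVCAR-3 and the 40.6th in SKOV-3. Peaks of the other genes of chromosome 19 were at the 44.2nd, 50.3rd, 47.1st and 58.2nd percentile, higher in each line. The median −log10 q of ZNF peaks was 8.85, 15.4, 29.5 and 12.0, and their median fold enrichment over the local background 3.95, 4.11, 5.89 and 5.40, neither of which is scaled between libraries. Over all marked genes the median fold enrichment was 4.45, 4.65, 7.39 and 5.25. Ranked by fold enrichment, the median ZNF gene was at the 33.2nd, 34.8th and 34.0th percentile in COLO-205, DU-145 and OVCAR-3 but at the 53.8th in SKOV-3, so the ZNF peaks of that line were not low by this measure.

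The summits of these peaks lay mostly inside the gene. Measured from the canonical transcript start, the median summit of ZNF genes was 251 bp downstream in COLO-205, 187 bp in SKOV-3, 165 bp in DU-145 and 156 bp in OVCAR-3, and 90.9%, 78.0%, 72.7% and 73.5% of summits were downstream. For the other genes of the chromosome it lay nearer to the start in each line, with 156 bp in SKOV-3, 147 bp in OVCAR-3 and 183 bp in COLO-205. The shift of ZNF summits further into the gene was thus largest in COLO-205.

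The ZNF genes with the strongest peaks in all 4 lines were mostly short-arm genes. ZNF414, at chr19:8574562-8579051, had a −log10 q of 25.1 in COLO-205, 45.5 in DU-145 and, of the ovarian lines, 114 in OVCAR-3 and 53.3 in SKOV-3, where it ranked at the 98.2nd percentile. ZNF558 had 25.7, 46.5, 77.9 and 35.6 in the same order, and ZNF121, which encodes a partner of MYC, had 26.5, 35.5, 111 and 27.6. All 3 belong to cluster 2.

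The next in this order were ZNF566, ZNF562, ZNF653, ZNF317 and ZNF274. ZNF566, a gene of cluster 6, had a −log10 q of 220 in OVCAR-3, at the 98.2nd percentile, and 11.6 in COLO-205, 37.8 in DU-145 and 26.4 in SKOV-3. ZNF562 had 17.8, 40.9, 75.9 and 31.3 in COLO-205, DU-145 and the ovarian lines OVCAR-3 and SKOV-3, and ZNF653, which encodes a transcriptional repressor, had 12.6, 34.2, 96.3 and 30.5. ZNF317 had 14.1, 46.8, 120 and 9.45, which puts it high in DU-145 and OVCAR-3 and at the 26.5th percentile in SKOV-3.

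ZNF274, which recruits SETDB1 to the 3′ exons of other ZNF genes, was marked in all 4 lines. Its −log10 q was 6.24 in COLO-205 and 25.8 in DU-145, with 105 in OVCAR-3 and 56.3 in SKOV-3. These values correspond to the 10.9th, 60.0th, 84.4th and 98.7th percentile, so the gene stood near the bottom of the COLO-205 list and near the top of the SKOV-3 list. It and ZNF587 were the only genes of cluster 10 marked in every line.

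Genes marked in 1 line had weaker peaks than the typical marked ZNF gene, with exceptions. In COLO-205 the strongest were ZNF69, with a −log10 q of 25.0, ZNF808, a gene required for pancreas development, with 9.18, and ZNF98 with 8.68. In DU-145 they were ZNF560 with 32.0, ZNF575 with 26.1 and ZNF554 with 25.6. The ZNF575 peak, at chr19:44029762-44031346, lies away from the canonical start at 44037340, and the windows of ZNF575 overlap that of ETHE1. In OVCAR-3 they were ZNF527 with 72.4, ZNF773 with 31.9 and ZNF784 with 25.1.

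The strongest of the genes marked only in SKOV-3 were ZNF135 with a −log10 q of 23.6, ZNF320 with 19.8 and ZNF528 with 17.4. In that library they rank at the 79.0th, 71.5th and 64.1st percentile of marked promoters. ZNF69 likewise stood at the 84.0th percentile of COLO-205. The median −log10 q of all ZNF genes with a single marked line came to 7.09 in COLO-205, 13.9 in DU-145 and, of the ovarian lines, 16.0 in OVCAR-3 and 9.78 in SKOV-3.

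Among ZNF genes with known functions, ZNF91 and ZNF93, which repress SVA and L1 retrotransposons in primates, were unmarked in OVCAR-3 and marked in the other lines. The −log10 q of ZNF91 was 8.47 in COLO-205, 10.5 in DU-145 and 12.8 in SKOV-3, and that of ZNF93 7.65, 8.20 and 9.16. Both belong to cluster 4, and both had low peaks, at or below the 45.1st percentile of each library. ZNF208, a neighbour with 36 zinc fingers, was marked in no line.

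ZNF382, ZNF471 and ZNF667, genes known to be silenced by DNA methylation in several carcinomas, were marked in DU-145, OVCAR-3 and SKOV-3 and not in COLO-205. ZNF471 had a −log10 q of 30.2, 128 and 41.9 in the 3 lines, ZNF382 28.4, 17.4 and 13.4, and ZNF667 25.5, 19.3 and 9.02. ZNF671, another gene of this kind, was marked in no line. The combination of DU-145, OVCAR-3 and SKOV-3 was that of 31 of the 246 ZNF genes, and 161 ZNF genes were unmarked in COLO-205. The window of ZNF382 overlaps that of ZNF529, whose strongest SKOV-3 peak is the same one. DNA methylation was not measured in these data.

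ZNF331, an imprinted gene with several promoters, was marked in DU-145 with a −log10 q of 19.1 and in OVCAR-3 with 275, the latter at the 99.2nd percentile. It lies in a second stretch, at 54 to 55 Mb, where OVCAR-3 peaks are dense. ZNF146, which encodes a protein made almost entirely of zinc fingers, was marked in DU-145 (23.6) and OVCAR-3 (139). ZNF536, a regulator of neuronal differentiation outside the clusters, had weak peaks in COLO-205 (6.48) and OVCAR-3 (9.60), and ZNF114 was marked in DU-145 alone (11.8).

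The 26 genes marked in no line were spread over 7 clusters. Cluster 8 held 9 of them among its 39 ZNF genes (ZNF175, ZNF614, ZNF836, ZNF534, ZNF611, ZNF600, ZNF845, ZNF765 and ZNF761). Cluster 4 held 6 among 37 and cluster 10 held 5 among 43, where 10.6% of all ZNF genes were marked in no line. The 5 with the most CG dinucleotides in the promoter were ZNF324B with 29 in 300 bp, ZNF761 and ZNF845 with 28, ZNF611, which binds SVA elements, with 26, and ZNF765 with 25. Apart from ZNF324B they lie within cluster 8, so the promoters printed for ZNF761 and ZNF845 come from the same stretch of the chromosome.

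**Figure D4:**
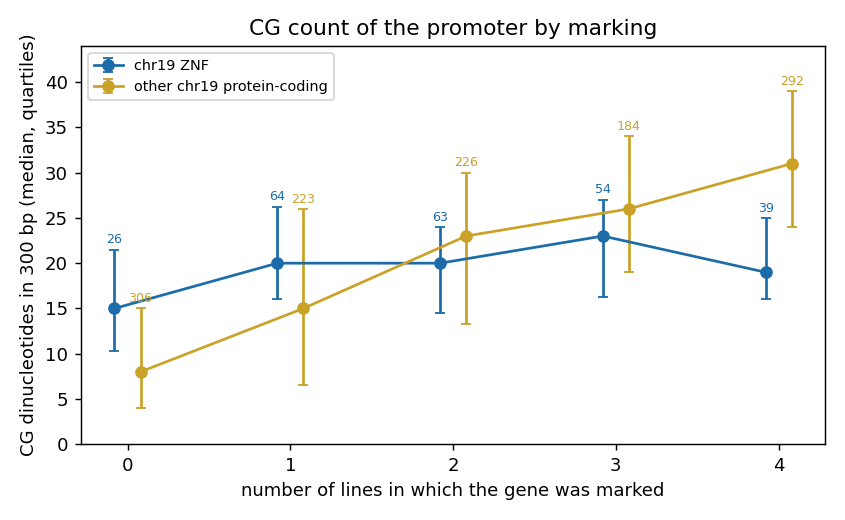
CG dinucleotides in the 300 bp promoter (y axis, median with quartiles) of ZNF genes and of the other protein-coding genes of chromosome 19, by the number of lines in which the gene was marked (x axis), with the number of genes above each point. The other genes rise from a median of 8 to 31 CG, while the ZNF genes stay between 15 and 23.

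The CG content of the promoter separated marked from unmarked genes less among ZNF genes than among other genes. The promoter was taken as the 250 bp before and 50 bp after the canonical start. The median number of CG dinucleotides in ZNF promoters was 15 for genes marked in no line, 20 for 1 line, 20 for 2, 23 for 3 and 19 for all 4. For the other genes of chromosome 19 it climbed through 8, 15, 23 and 26 to 31.

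Line by line, marked ZNF promoters had a median of 21 CG against 18 for unmarked ones in DU-145, 22 against 17 in OVCAR-3 and 20.5 against 20 in SKOV-3. In COLO-205 the order was the opposite, with 18 for marked and 21 for unmarked ZNF promoters. Within each arm it was not, with 15 against 14 on the short arm and 24 against 22 on the long arm, so the pooled order in COLO-205 goes with the difference between the arms. The promoters of cluster 4 were the poorest, with a median of 10, and those of cluster 9 the richest, with 30.

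Short sequence motifs were counted in the same promoters on both strands, where matches may overlap. CCGGAAG, a sequence known to be bound by ETS factors, was in 110 ZNF promoters (44.7%), against 15.2% of the other genes and 20.1% of all genes of chromosome 19. CCAAT was in 52.4% of ZNF promoters, against 37.1% and 39.7%. GGGCGG, the GC box, was equally frequent (66.7%, 66.1% and 66.3%), and TATAAA was rare (3.25%, 7.72% and 6.96%), as was GCATGCG (5.28%, 6.42% and 6.28%).

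The share of promoters with CCGGAAG was not higher in ZNF genes marked in all lines than in those marked in none. It was in 15 of the 26 ZNF promoters marked in no line (57.7%) and in 15 of the 39 marked in all 4 (38.5%). In the other genes the share rose from 4.25% to 22.6% between the same classes. A match is a run of letters and not a bound site, and no factor binding was measured.

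The number of zinc fingers in the encoded protein varied little with marking. It could be counted in 242 of the 246 genes and ranged from 1 in ZNF428 to 39 in ZNF729, with a median of 13. The median was 13 for genes marked in no line and 11.5 for genes marked in all 4. Clusters ranged from a median of 9 fingers (cluster 2) to 13.5 (cluster 3).

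**Figure D5:**
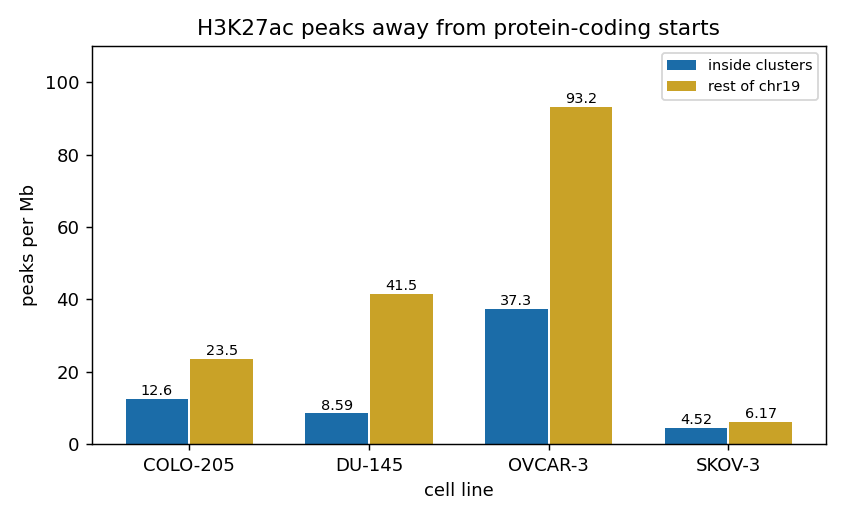
H3K27ac peaks more than 1 kb from any protein-coding transcript start, per Mb of such sequence (y axis), inside the 10 ZNF clusters and in the rest of chromosome 19, in each cell line (x axis). The density inside the clusters is lower in each line, from 4.52 against 6.17 per Mb in SKOV-3 to 37.3 against 93.2 in OVCAR-3.

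Away from promoters, the ZNF clusters carried fewer peaks than the rest of the chromosome. Inside the clusters there were 12.6 peaks per Mb more than 1 kb from any protein-coding start in COLO-205 and 8.59 in DU-145, with 37.3 in OVCAR-3 and 4.52 in SKOV-3. In the rest of the chromosome there were 23.5, 41.5, 93.2 and 6.17 per Mb, a higher density in each line. Of the 487 such OVCAR-3 peaks inside clusters, 361 were those of cluster 6, and clusters 1, 4 and 10 had 0 in that line.

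The share of peaks away from starts differed most between clusters and the rest in DU-145. Of all peaks inside the clusters, 30.7% lay away from starts in DU-145, against 53.1% in the rest of chromosome 19. In SKOV-3 the shares were 28.0% and 34.1%, in OVCAR-3 65.4% and 70.7%, and in COLO-205 58.0% and 54.1%. At a −log10 q of at least 10 the share inside the clusters was 16.8% in DU-145, 21.8% in SKOV-3, 28.8% in COLO-205 and 57.1% in OVCAR-3, so that most cluster peaks then lay near starts in each line but OVCAR-3.

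The 3′ ends of ZNF genes, where H3K9me3 is known to lie, were nearly free of H3K27ac. Of 214 ZNF genes with an end window clear of any promoter window, a peak lay within 1 kb of the end in 4 in COLO-205 (1.87%), 0 in DU-145 (interval up to 1.71%), 11 in OVCAR-3 (5.14%) and 1 in SKOV-3 (0.467%). Of 757 other genes of chromosome 19 the shares were 7.0%, 9.11%, 11.6% and 1.59%. The ZNF share was lower in each line, with intervals that overlap only in SKOV-3. The 2 groups also differ in location, since 232 of the 246 ZNF genes but only 110 of the 1231 other genes lie in the clusters. Peaks away from starts were sparser there in each line, for example 8.59 against 41.5 per Mb in DU-145 and 4.52 against 6.17 in SKOV-3. Whether ZNF gene ends held fewer peaks than other cluster sequence was not tested. H3K9me3 itself was not measured.

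The genes of the silencing machinery with which KRAB zinc finger proteins work were marked in most lines. Of 19 corepressor genes, 16 were marked in COLO-205, 18 in DU-145 and, of the ovarian lines, 18 in OVCAR-3 and 14 in SKOV-3, and 13 were marked in all 4, above the shares of all protein-coding genes given earlier. TRIM28, the corepressor that binds the KRAB domain and itself a gene of chromosome 19, had a −log10 q of 20.8, 17.3, 75.9 and 13.7 in COLO-205, DU-145 and the ovarian lines OVCAR-3 and SKOV-3. SETDB1 was marked in each line too, with 5.52, 45.8, 61.0 and 17.0, the first at only the 6.27th percentile of marked promoters in its line.

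The exceptions were few. MPHOSPH8, a subunit of the HUSH silencing complex, was marked only in COLO-205 (16.3), and its partners TASOR and PPHLN1 were marked in all 4 lines. CBX5, which encodes a heterochromatin protein, and DAXX, a histone chaperone, were marked in DU-145 and OVCAR-3 only. ATRX, the partner of DAXX, was unmarked in COLO-205, and HDAC1 and CHD4, subunits of the NuRD complex, were unmarked in SKOV-3, the line with the shortest list.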

How the data were processed

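Chromatin of 4 cell lines was profiled by H3K27ac ChIP-seq, with 1 library per line. Per their methods and the submitters' processing notes, the authors aligned reads to hg19 (Bowtie2 2.1.0) and ran narrow peak calling library by library (MACS2 2.1.0.20150603, q-value below 0.001). In the deposited files a peak carries a score (10 times the −log10 q), a fold enrichment (a ratio over the local background), a −log10 p, a −log10 q and a summit offset. None of these deposited values is comparable in size across libraries. A merging of peaks closer than 350 bp is described in the methods, but each deposited list holds 2070 or more such neighbours, so the peaks were used as deposited. The lists give no read counts, so the sequencing depth behind a peak was not used.

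Genes, transcript starts and ends came from GENCODE release 44 lifted to GRCh37, the build of the peak lists, and sequences from the GRCh37 assembly. A gene was marked when a peak overlapped the 1 kb either side of a transcript start by at least 1 bp. The gene's strongest peak by −log10 q gave its value. Zinc fingers were counted in the translated coding sequence of the canonical transcript. Shares have exact Clopper-Pearson 95% intervals, which cover counting error only. No test between lines was possible with 1 library each, and none was made between gene sets. The code of the marking rule was checked with simulated peaks placed to overlap the windows of 200 genes among 1480, and all 200 were recovered. This checks the overlap step only and not whether the rule finds active promoters.

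The members and lists were chosen with earlier results of these data known. The genes named are the 8 marked in all 4 lines with the highest median percentile, the 3 strongest per line among those marked in 1 line, the 5 unmarked genes with the most CG dinucleotides, a list of genes with known functions, the corepressor genes and the tissue markers. Gene names beyond these are listed where a count or a cluster is described and were chosen after their values were seen. Alternatives comprised a minimum −log10 q of 5 or 10, equal numbers of peaks, merging, windows of 500 bp and 2 kb, other sets of starts, summits only, other cluster gaps, other strength measures and left-out regions or genes. The canonical start and the 3 readthrough loci were alternatives added after the data were seen. The tools were biopython 1.88, pandas 2.3.3, scipy 1.17.1, numpy 2.4.6 and matplotlib 3.10.9 under Python 3.11.15. The prostate marker list is not reported here.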

Additional observations from a re-analysis of the deposited data

How the results depend on the processing

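No paired analysis was possible because each line has a single library, and no library could be left out. Of 250 recomputed main values, 198 kept their direction and stayed within the error of the reported value (its 95% interval, the quartiles behind a median, or 1.5 times for a count or density), 48 moved beyond it and 4 reversed. Within that error the DU-145 difference still ranged from 0.78 to 7.44 points and the OVCAR-3 difference from 0.21 to 5.00. The reversals were those of the small differences between ZNF and other genes in DU-145 and OVCAR-3, which became −3.54 and −2.40 percentage points at a −log10 q of at least 10 and −8.91 and −5.26 with equal numbers of peaks. The COLO-205 and SKOV-3 differences kept their sign under each alternative tried.

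At a −log10 q of at least 10 the marked share of ZNF genes was 13.8% in COLO-205 and 47.6% in DU-145, with 51.2% in OVCAR-3 and 29.7% in SKOV-3, and that of other genes 24.9%, 51.1%, 53.6% and 22.7%. The SKOV-3 difference was then 6.93 points, 17 ZNF genes were marked in all 4 lines and 69 in none. With equal numbers of peaks the ZNF shares were 9.35%, 28.5% and 30.1% in COLO-205, DU-145 and OVCAR-3, those of other genes 16.4%, 37.4% and 35.3%, and 10 ZNF genes were marked in all 4 lines and 94 in none. The distance between the highest and lowest cluster was then 46.2 points in COLO-205 and 92.3 in DU-145, and in DU-145 it was 89.0 with a cluster gap of 250 kb.

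The share of other genes in COLO-205 was 39.9% with a 500 bp window, 46.6% with 2 kb, 40.6% with protein-coding transcripts, 35.0% with the 5′ end of the gene and 36.2% with the canonical start. With the 5′ end it was 27.4% in SKOV-3, 53.9% in OVCAR-3 and 55% in DU-145, and 42 ZNF genes were unmarked throughout. In DU-145 and OVCAR-3 it was 55.2% and 54.8% with the canonical start and 54.1% and 53.8% for genes with a window of their own, and in OVCAR-3 56.3% without the dense stretches. At a −log10 q of at least 10, the clusters held 4.57, 13.6, 29.4 and 8.59 peaks per Mb in COLO-205, DU-145 and the ovarian lines OVCAR-3 and SKOV-3, of which 28.8%, 16.8%, 57.1% and 21.8% lay away from starts, and 0% of ZNF gene ends had a peak in COLO-205 and SKOV-3. The share away from starts in DU-145 was 24.7% and 40.8% with cluster gaps of 250 kb and 1 Mb. The cause of these shifts was not tested beyond the stricter lists holding fewer peaks.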
